A study of Mus musculus with 44 samples.

Results

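The genes described here encode 9 haematopoietic cytokine receptor chains: Kit, Flt3, Csf1r, Csf2ra, Csf2rb, Csf2rb2, Csf3r, Il3ra and Epor. They were taken by name from a table that counts reads around each gene's transcription start site, where all 9 had a row among 27095, and the Snai1 peaks within 50 kb of each gene were added. The cells were HPC7, a mouse haematopoietic progenitor line cultured with 100 ng/ml of stem cell factor, the ligand of Kit. All of them carried the MSCV-IRES-GFP retrovirus: with no gene (empty vector), with wild-type Snai1, or with a mutant Snai1 in which a phenylalanine is replaced by alanine, which impairs binding to the histone demethylase Lsd1. GFP-positive cells were sorted 1 week after transduction and expanded, so the Snai1 in the wild-type and mutant cells was made from a viral vector. Each of the 3 constructs had 3 libraries of H3K4me2 and 3 of H3K4me1, while IgG was sequenced in 2 libraries of wild-type Snai1 cells only. Snai1 ChIP had 4 technical replicates per construct and is represented by 1 peak list per construct.

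Kit, Flt3 and Csf1r are receptor tyrosine kinases, which dimerise when their ligand binds and phosphorylate themselves and their partners. The other receptors belong to the cytokine receptor family, have no kinase of their own and signal through Jak kinases and Stat factors. Csf2ra (GM-CSF) and Il3ra (interleukin 3) are ligand-binding alpha chains that pair with the common beta chain Csf2rb, and in mice Csf2rb2 is a second beta chain that serves interleukin 3. Csf3r (G-CSF) and Epor (erythropoietin) act as homodimers. H3K4me2 marks active and primed promoters and enhancers, H3K4me1 is richest at enhancers and on the flanks of active promoters, and Lsd1 removes both marks. Snai1 is a zinc-finger repressor that binds E-boxes of the form CACCTG or CAGGTG.

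Promoters are shown first because a Snai1 peak lay over that of 1 receptor gene. RefSeq (GRCm38.p6) gave a promoter of 300 bases, from 250 before to 50 after the start site, for 7 of the 9 genes. Kit had 2 entries, of which only the first was used here. There was no entry for Csf1r and Csf2rb. The sequences below are those of Kit, over which a peak lay in both Snai1 lists, of Flt3, whose peaks lay far from its start, and of Csf2rb2, the receptor with the largest H3K4me2 difference between wild-type and mutant cells. Kit is at chr5:75574737-75575036 on the plus strand, Flt3 at chr5:147400440-147400739 on the minus strand, and Csf2rb2 at chr15:78305672-78305971 on the minus strand. Each is written 5′ to 3′ in the gene's direction, and capitals mark every CANNTG, the general E-box.
Kit: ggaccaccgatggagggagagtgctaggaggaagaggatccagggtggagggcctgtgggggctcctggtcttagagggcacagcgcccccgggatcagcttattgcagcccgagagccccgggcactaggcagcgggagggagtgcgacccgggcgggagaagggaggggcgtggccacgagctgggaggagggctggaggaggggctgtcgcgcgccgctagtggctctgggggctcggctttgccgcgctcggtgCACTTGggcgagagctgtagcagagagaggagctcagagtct
Flt3: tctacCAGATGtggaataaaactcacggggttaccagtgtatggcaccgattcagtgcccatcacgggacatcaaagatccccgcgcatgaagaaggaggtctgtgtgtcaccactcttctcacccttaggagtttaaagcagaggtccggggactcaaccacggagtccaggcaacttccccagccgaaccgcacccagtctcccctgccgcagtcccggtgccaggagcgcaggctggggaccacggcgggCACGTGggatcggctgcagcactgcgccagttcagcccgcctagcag
Csf2rb2: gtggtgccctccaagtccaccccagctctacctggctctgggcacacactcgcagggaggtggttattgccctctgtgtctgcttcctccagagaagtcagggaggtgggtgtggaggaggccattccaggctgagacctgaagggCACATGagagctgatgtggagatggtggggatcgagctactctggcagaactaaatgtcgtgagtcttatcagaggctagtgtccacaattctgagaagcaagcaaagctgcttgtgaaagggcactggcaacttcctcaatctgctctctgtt

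CACCTG, searched on both strands, was in none of the 7 receptor promoters and in 20.2% of 32851 RefSeq promoters of this length. CANNTG, which includes CACCTG, was in 5 of the 7 and in 72.3% of all promoters. Kit held 1, a CACTTG beginning 8 bases after the start site, Csf2rb2 held 1, beginning 104 bases before it, Flt3 and Csf2ra held 2 each and Epor held 5. Csf3r and Il3ra held none. GATAA, the core of sites for GATA factors, was in Csf2rb2 (38 bases before the start site) and Epor (54 bases before it) and in 25.4% of all promoters. The promoters also differed in base composition: Il3ra had 35 CpG dinucleotides, Csf2ra 23, Kit 20 and Flt3 18, against 9 in Csf3r, 7 in Epor, 3 in Csf2rb2 and a median of 7 over all promoters. These matches describe letters in a window and were not tested as binding sites.

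In GRCm38 coordinates, Kit spans chr5:75574987-75656722, Csf1r chr18:61105572-61131139, Csf2ra chr19:61217191-61228461, Csf2rb chr15:78325800-78351001, Csf2rb2 chr15:78282507-78305721, Csf3r chr4:126023441-126044975, Il3ra chr14:14345912-14355493 and Epor chr9:21958897-21963576. Some windows may share reads with a neighbour. The annotated start of the predicted gene Gm32908 is 5 bases from that of Csf3r, and that of Gm26597 is 935 bases from that of Flt3.

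Library totals over all windows were 8694515 to 18199945 reads for H3K4me2, 4042976 to 8813537 for H3K4me1, and 2714255 and 3355479 for IgG. Replicate 1 stood apart from replicates 2 and 3. The variance between libraries of 1 construct and mark was 9.49 to 17.7 times the counting variance in pairs with replicate 1 and 0.98 to 2.3 times in pairs of replicates 2 and 3. For the 2 IgG libraries, replicates 1 and 2, it was 5.54 times. Empty-vector H3K4me1 replicates 2 and 3 differed by less than the sampling noise and were counted as 1 sample (n = 2 for that group), and the receptors' differences between constructs are therefore also given within replicate 1 and within replicates 2 and 3, in the text or in the plot of fold changes. The labels do not say whether replicates are separate cultures, so p-values measure the spread between these libraries, which may be technical. A mark carried by fewer cells and less of it per cell cannot be told apart in such libraries. Of 12 progenitor markers in wild-type cells, 10 were higher than IgG and 2 lower in H3K4me2. Counted separately in H3K4me1, 10 were higher and 1 lower. Erg was at 2.0 to 5.3 CPM of H3K4me2 in the methylation libraries of all constructs, below its 40.2 and 45.0 CPM of IgG. Lmo2 ran from 11.3 to 71.5 CPM of H3K4me2 and from 73.5 to 138.4 CPM of H3K4me1 in these libraries, with 37.8 and 52.3 CPM of IgG. The T cell, B cell, neutrophil, macrophage, erythroid, mast cell, fibroblast and epithelial marker lists had H3K4me2 medians of -3.77 to -2.52 (log2 over IgG, all windows -1.92). In these lists, 1 macrophage and 1 mast cell marker were higher than IgG in H3K4me2. Their H3K4me1 medians were -1.86 to -0.16 (all windows -0.44). In H3K4me1, 2 of 4 mast cell markers were higher than IgG, and 1 each of the T cell, B cell and macrophage markers.

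Kit had the strongest H3K4me2 window of the 9 receptors in every library. Levels are counts scaled to the library's total (CPM) in windows that the table's name puts at 5 kb for every gene, so genes can be set side by side within a mark. Its H3K4me2 was 169.0, 173.1 and 181.4 CPM in empty-vector replicates 1, 2 and 3, 169.9, 152.4 and 161.8 CPM in wild-type cells, and 159.7, 159.5 and 165.1 CPM in mutant cells. These 9 libraries lay within 1.19-fold of each other, and the Kit window was above 98.0 to 99.4% of all windows. Kit had 56.9 and 37.2 CPM of IgG. Epor followed in H3K4me2 with 66.9 to 89.0 CPM (median 80.3), then Csf3r with 52.4 to 71.2 CPM (median 65.9) and Csf2rb with 52.9 to 74.1 CPM (median 65.5). Csf3r and Csf2rb could not be separated by these ranges. Il3ra (median 46.1 CPM), Flt3 (45.1) and Csf2rb2 (39.1) formed a group with overlapping ranges between 29.8 and 59.8 CPM. Csf1r was at 24.4 to 52.0 CPM (median 30.4) and Csf2ra at 26.4 to 32.1 CPM (median 28.6), also overlapping. The median window of all genes was at 7.17 to 10.6 CPM, so all 9 receptors were in the upper part of the H3K4me2 distribution, Csf2ra lowest with a median percentile of 57.5.

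The order differed in H3K4me1. Csf1r, the receptor of the macrophage growth factor M-CSF, had a median over the 9 libraries of 140.9 CPM, Csf2rb 107.0 CPM and Csf3r 93.2 CPM. Their ranges overlapped, and Csf2rb was above Csf1r in wild-type and mutant replicates 2 and 3. Csf2rb2 (median 71.8 CPM) and Kit (69.8 CPM) overlapped in their ranges, as did Flt3 (51.2 CPM), Epor (48.2 CPM) and Csf2ra (43.3 CPM), and Il3ra was lowest at 15.6 to 29.6 CPM. The median window of all genes was at 22.8 to 25.5 CPM. Il3ra was the only receptor whose median H3K4me1 percentile (48.0) was below the middle of all windows, and Csf1r was at the percentile 97.3. In IgG the 9 receptors ran from 22.1 to 62.6 CPM, with Csf2ra highest at 50.4 and 62.6 CPM, and the median window was at 38.2 and 38.3 CPM.

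**Figure D1:**
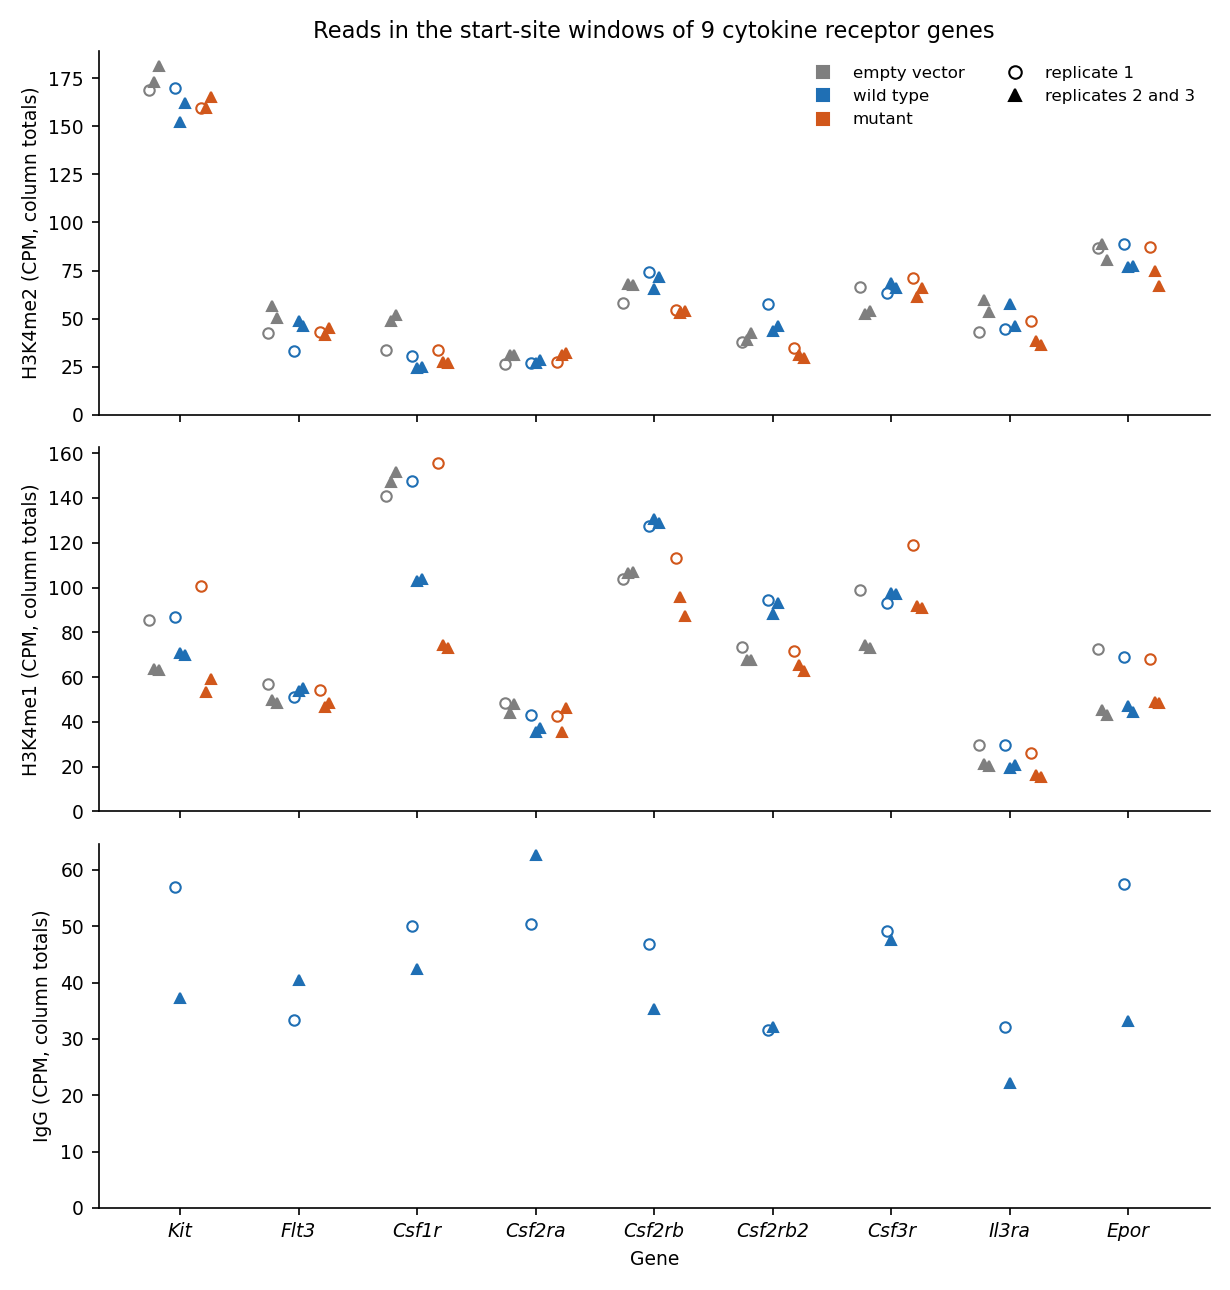
CPM on library totals in the start-site windows of the 9 receptor genes (y axes) for H3K4me2, H3K4me1 and IgG (panels). Each point is 1 library, coloured by construct, with replicate 1 as open circles and replicates 2 and 3 as triangles. Kit lies above the other receptors in H3K4me2, and Csf1r spreads from 73.0 to 155.7 CPM in H3K4me1, where replicates 2 and 3 of mutant cells are lowest.

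The balance between the marks differed between the receptors. The log2 ratio of H3K4me2 to H3K4me1 CPM in libraries of the same construct and number was 0.67 to 1.58 for Kit (median 1.21), 0.55 to 1.56 for Il3ra (median 1.23) and 0.26 to 0.97 for Epor (median 0.61). It was positive for these 3 genes in all 9 pairs of libraries. Csf1r was at the other end with -2.28 to -1.42 (median -2.06), followed by Csf2rb2 with a median of -1.01 and Csf2rb with -0.83, and these, Csf3r and Csf2ra were negative in all 9 pairs. Flt3 lay between, from -0.62 to 0.18. Summed over libraries, Kit stood at the percentile 98.4 of all windows on this ratio, Il3ra at 97.6, Epor at 84.9 and Csf1r at 8.5, where the median of all windows was -0.45. Csf2rb was at 32.5 and Csf2rb2 at 30.4. Csf3r (44.3), Csf2ra (44.2) and Flt3 (59.4) were nearer the middle, so a negative ratio alone does not set a window apart.

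Set against IgG in wild-type cells, 6 of the 9 receptors were higher in H3K4me2, where 36.1% of all windows tested were higher and 55.7% lower. The log2 difference was 1.77 for Kit (SE 0.203, adjusted p 3.01e-06), 0.85 for Il3ra (SE 0.196), 0.82 for Epor (SE 0.191), 0.77 for Csf2rb (SE 0.146), 0.63 for Csf2rb2 (SE 0.17) and 0.45 for Csf3r (SE 0.122), with adjusted p up to 0.00397. Flt3, the receptor of early lymphoid and myeloid progenitors, gave 0.21 (SE 0.195, adjusted p 0.315), and 0.37 (adjusted p 0.0291) without wild-type H3K4me2 replicate 1. Csf1r gave -0.80 (SE 0.192, adjusted p 0.0016) and Csf2ra -1.04 (SE 0.161, adjusted p 4.69e-05), which are lower than IgG on library totals. Those 2 directions rest on the scaling. The median of all windows was -1.92 on library totals, and it moved by 0.98 with TMM factors and by 1.81 with DESeq2 size factors. Csf1r then gave 0.18 and 1.02, Csf2ra -0.04 and 0.78, and Flt3 1.21 and 2.03. The windows called higher and lower were 9488 and 14665 on library totals, 11567 and 13478 with TMM, and 12340 and 12248 with DESeq2 size factors. Relative to other windows, Csf1r was at the percentile 54.7 and Csf2ra at 53.7 on this difference, and Kit at 98.0.

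In H3K4me1, 6 of 9 receptors were higher than IgG, where 27.7% of all windows were higher and 48.4% lower. The log2 differences were 1.64 for Csf2rb (SE 0.19), 1.53 for Csf2rb2 (SE 0.161), 1.35 for Csf1r (SE 0.218), 0.99 for Csf3r (SE 0.158), 0.68 for Kit (SE 0.205, adjusted p 0.0107) and 0.53 for Flt3 (SE 0.161, adjusted p 0.011). Without IgG replicate 2, Kit gave 0.42 (adjusted p 0.105), and Flt3 lost its call without H3K4me1 replicate 3 (0.51, adjusted p 0.0531) or IgG replicate 1 (0.40, adjusted p 0.0792). Epor gave 0.23 (SE 0.257, adjusted p 0.428) and Il3ra -0.22 (SE 0.293, adjusted p 0.503). Csf2ra gave -0.54 (SE 0.169, adjusted p 0.0132), a call lost with TMM (-0.03) or DESeq2 size factors (-0.07) and without H3K4me1 replicate 2 (-0.48) or IgG replicate 2 (-0.38). Epor was called with both of those scalings (0.73 and 0.71). The median of all windows moved from -0.44 by 0.51 with TMM and 0.48 with DESeq2 size factors, and the calls higher and lower from 7249 and 12669 to 11177 and 11293 and to 11037 and 11318.

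**Figure D2:**
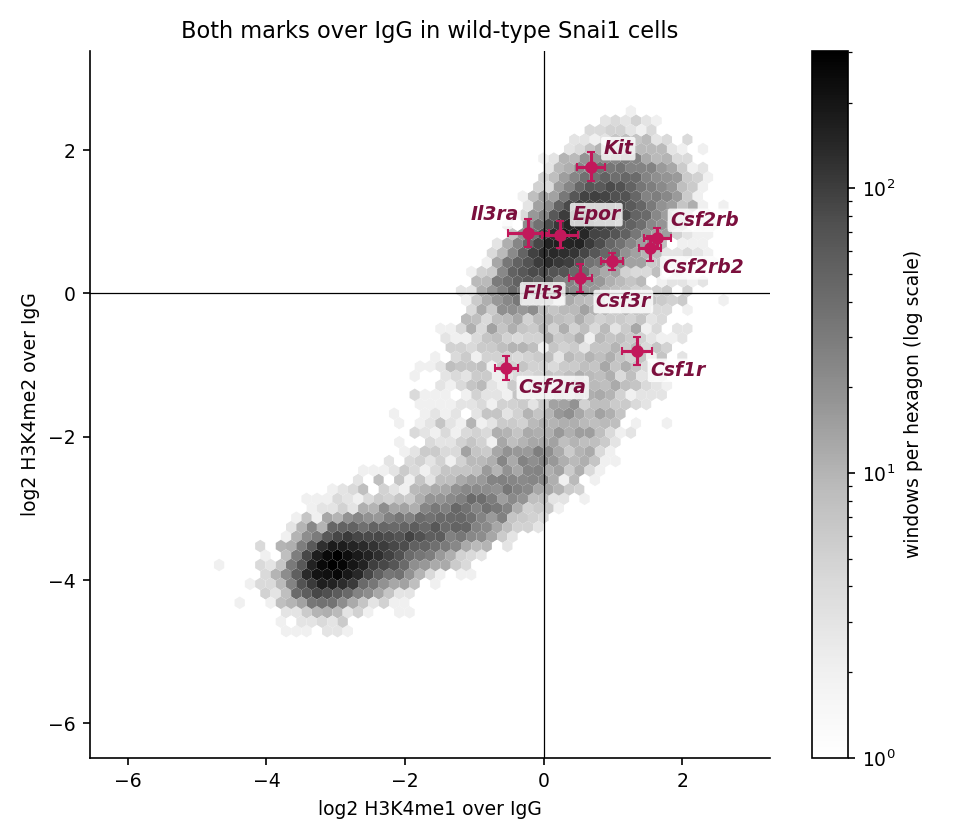
Log2 difference from IgG in wild-type Snai1 cells for H3K4me1 (x axis) and H3K4me2 (y axis), on library totals. Grey hexagons count all windows on a log scale, and points with bars are the 9 receptor genes ± SE. Kit (0.68 and 1.77) and Il3ra (-0.22 and 0.85) lie on the H3K4me2 side, while Csf1r (1.35 and -0.80) lies on the H3K4me1 side.

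The rest of the pathway was measured with the same test, on library totals, and its calls were not compared between scalings here. Of all windows, 36.1% were higher and 55.7% lower in H3K4me2, and 27.7% and 48.4% in H3K4me1. All 25 signalling genes were higher than IgG in H3K4me2 (median 1.07, all windows -1.92), among them the adaptor Grb2 (1.97) and the transcription factor Stat3 (1.49), and 20 of 25 in H3K4me1. All 14 negative regulators were higher in H3K4me2 (median 1.27), such as Spred2 (1.99), an inhibitor of the Ras pathway, and Cbl (1.33), a ubiquitin ligase for Kit, and 12 of 14 in H3K4me1. All 12 genes induced by cytokine signalling were higher in H3K4me2 (median 1.77), such as Myc (1.95), and 9 of 12 in H3K4me1. The ligands differed: 2 of 10 were higher in H3K4me2, Flt3l (0.94) and Csf1 (0.43), and 8 were lower (median -3.30), among them Epo (-3.64) and Thpo (-3.22). Kitl, the gene of stem cell factor, had 2.5 to 4.1 CPM of H3K4me2. Of 16 related receptors, 9 were higher and 5 lower in each mark, with Il9r at 1.78 in H3K4me2 and Lifr (-4.01), Osmr (-3.62), Tek (-3.52) and Il7r (-3.60) among the lower ones. The kinase receptor genes beside Kit on chromosome 5 were low, Kdr at -2.71 and Pdgfra at -1.44, while Pdgfrb, beside Csf1r, was at 1.12. Flt1, beside Flt3, passed in H3K4me1 alone (0.61).

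None of the 9 receptors passed the test between constructs in either mark. This was so for each Snai1 construct against the empty vector and for wild type against mutant. Few windows passed at all with edgeR's quasi-likelihood test: in H3K4me2, 1 of 25742 windows (0.00388%) for wild type against empty vector, which was Glyat (adjusted p 0.0326, a gene singled out after its value was seen), and 0% in the mutant's comparison with the empty vector and in that of wild type with mutant. In H3K4me1, 0% of 25728 windows passed in each of the 3. At an unadjusted p under 0.05 there were 1884, 1274 and 2548 windows in H3K4me2 and 742, 415 and 1347 in H3K4me1, in the order wild type and mutant against the empty vector, then wild type against mutant. DESeq2 called 88, 8 and 74 in H3K4me2. In H3K4me1 it called 1, 0 and 30. The replicate number as a block raised the calls of wild type against empty vector to 5 in H3K4me2 and 2 in H3K4me1, and no receptor was among them (smallest adjusted p 0.126 and 0.2).

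Csf2rb2 had the largest H3K4me2 difference between wild-type and mutant cells among the receptors. Its H3K4me2 was 38.0, 39.1 and 42.8 CPM in empty-vector cells, 57.8, 43.5 and 46.2 CPM in wild-type cells, and 34.9, 31.3 and 29.8 CPM in mutant cells. The 3 wild-type libraries were above the 3 empty-vector libraries, and these were above the 3 mutant libraries, with no overlap. Wild type against mutant, the log2 fold change was 0.69 (SE 0.141, unadjusted p 0.000265, adjusted p 0.503), 0.64 in replicate 1 and 0.72 in replicates 2 and 3. Against the empty vector it was 0.37 in wild-type cells (SE 0.14, adjusted p 0.549), 0.60 in replicate 1 and 0.24 in replicates 2 and 3, and -0.32 in mutant cells (SE 0.141, adjusted p 0.952), -0.04 and -0.48. The difference between wild type and mutant passed with DESeq2 (0.72, adjusted p 0.0146), with replicates 2 and 3 summed and a term for replicate 1 (0.72, adjusted p 0.0417), and without mutant replicate 1 (0.86, adjusted p 0.0108). Over the alternatives that gave a p, its adjusted p ran from 0.0108 to 0.969.

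Csf2rb, 20079 bases from Csf2rb2 on chromosome 15 and similar to it in sequence, had the next largest difference. Its H3K4me2 was 58.3, 67.9 and 67.7 CPM in empty-vector cells, 74.1, 65.5 and 71.8 CPM in wild-type cells, and 54.7, 52.9 and 54.0 CPM in mutant cells. All mutant libraries were below the libraries of the other constructs, and wild-type and empty-vector libraries overlapped. Wild type against mutant gave 0.47 (SE 0.102, adjusted p 0.503), 0.36 in replicate 1 and 0.53 in replicates 2 and 3, and without mutant replicate 1 it passed (0.57, adjusted p 0.0152). How reads that match both genes were counted is not given in the sources used here, so the 2 windows may not be independent. In H3K4me1 both genes were highest in wild-type cells. Csf2rb2 had 73.3, 67.6 and 67.5 CPM in empty-vector cells, 94.6, 88.3 and 93.3 CPM in wild-type cells, and 71.8, 65.6 and 62.6 CPM in mutant cells. Csf2rb had 103.6, 106.4 and 107.0 CPM, then 127.5, 130.6 and 129.0 CPM, then 113.1, 95.7 and 87.3 CPM in the same order. In both genes the wild-type libraries did not overlap those of either other construct in CPM on library totals. Wild type against mutant, the H3K4me1 log2 fold change was 0.47 for Csf2rb2 (SE 0.163, adjusted p 0.872) and 0.39 for Csf2rb (SE 0.189, adjusted p 0.97). Csf2rb2 gave 0.22 in replicate 1 and 0.62 in replicates 2 and 3, and Csf2rb gave 0.00 and 0.63.

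Csf1r had the H3K4me2 log2 fold changes farthest from 0 against the empty vector, and they came from replicates 2 and 3. Its H3K4me2 was 33.7, 48.8 and 52.0 CPM in empty-vector cells, 30.4, 24.4 and 24.7 CPM in wild-type cells, and 34.0, 27.6 and 27.1 CPM in mutant cells. Empty-vector replicates 2 and 3 were the high libraries, and replicate 1 of the 3 constructs lay within 30.4 to 34.0 CPM. The log2 fold change against the empty vector was -0.68 in wild-type cells (SE 0.19, adjusted p 0.446), -0.15 in replicate 1 and -0.93 in replicates 2 and 3. In mutant cells it was -0.60 (SE 0.189, adjusted p 0.952), 0.09 in replicate 1 and -0.94 in replicates 2 and 3. Both passed without empty-vector replicate 1 (-0.85, adjusted p 0.0179, and -0.76, adjusted p 0.0487), a fit in which the empty vector alone lacked that replicate. In H3K4me1 Csf1r had 140.9, 147.1 and 151.5 CPM in empty-vector cells, 147.6, 103.1 and 103.8 CPM in wild-type cells, and 155.7, 74.1 and 73.0 CPM in mutant cells. Replicate 1 was again alike in the 3 constructs, and replicates 2 and 3 were ordered empty vector, wild type, mutant. The log2 fold changes were -0.28 for wild type (SE 0.362, 0.00 in replicate 1 and -0.44 in replicates 2 and 3) and -0.47 for mutant (SE 0.361, 0.25 and -1.06), each with an adjusted p of 1.

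Kit kept to a narrow range between constructs in H3K4me2. Its log2 fold change was -0.04 in wild-type cells against the empty vector (SE 0.103, adjusted p 0.973), -0.12 in mutant cells (SE 0.103, adjusted p 0.952) and 0.08 for wild type against mutant (SE 0.103, adjusted p 0.684). Replicate 1 gave 0.01, 0.00 and 0.01 in that order, while replicates 2 and 3 gave -0.07, -0.19 and 0.12. In CPM on library totals, the mutant libraries were all below the empty-vector libraries. In H3K4me1 Kit had 85.6, 63.5 and 63.2 CPM in empty-vector cells, 86.8, 70.9 and 69.8 CPM in wild-type cells, and 100.6, 53.3 and 59.1 CPM in mutant cells. Replicate 1 was the highest library of each construct, and the pooled log2 fold changes were between -0.03 and 0.07. Wild type against mutant was -0.39 in replicate 1 and 0.44 in replicates 2 and 3.

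In every receptor, replicate 1 and replicates 2 and 3 gave opposite signs in at least 1 comparison. For mutant against empty vector in H3K4me1, Csf2rb gave 0.24 and -0.26, and Csf2rb2 0.08 and -0.11. Il3ra H3K4me2 was 43.1, 59.8 and 53.5 CPM in empty-vector cells, 44.7, 57.7 and 46.1 CPM in wild-type cells, and 49.0, 38.5 and 36.5 CPM in mutant cells. Its log2 fold change for wild type against mutant was 0.33 (SE 0.178, adjusted p 0.508), with -0.22 in replicate 1 and 0.63 in replicates 2 and 3. Without mutant replicate 1, Il3ra (0.58, adjusted p 0.0443) and Epor (0.37, adjusted p 0.0305) passed in that comparison. With all libraries Epor gave 0.16 (SE 0.13, adjusted p 0.57), -0.05 in replicate 1 and 0.29 in replicates 2 and 3. Csf3r gave 0.26 for wild type against empty vector in H3K4me2 (SE 0.132, adjusted p 0.715), -0.07 in replicate 1 and 0.45 in replicates 2 and 3. Flt3 gave -0.14 (SE 0.163), -0.21 (SE 0.162) and 0.06 (SE 0.162) in the 3 H3K4me2 comparisons, where replicate 1 gave -0.35, 0.10 and -0.45, and replicates 2 and 3 gave -0.06, -0.36 and 0.30. Csf2ra lay between -0.05 and 0.01 in the 3 H3K4me2 comparisons, and in H3K4me1 its wild-type libraries (43.3, 35.4 and 37.4 CPM) were below its empty-vector libraries (48.4, 44.1 and 47.9 CPM), with a log2 fold change of -0.27 (SE 0.189, adjusted p 1), -0.23 in replicate 1 and -0.25 in replicates 2 and 3.

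**Figure D3:**
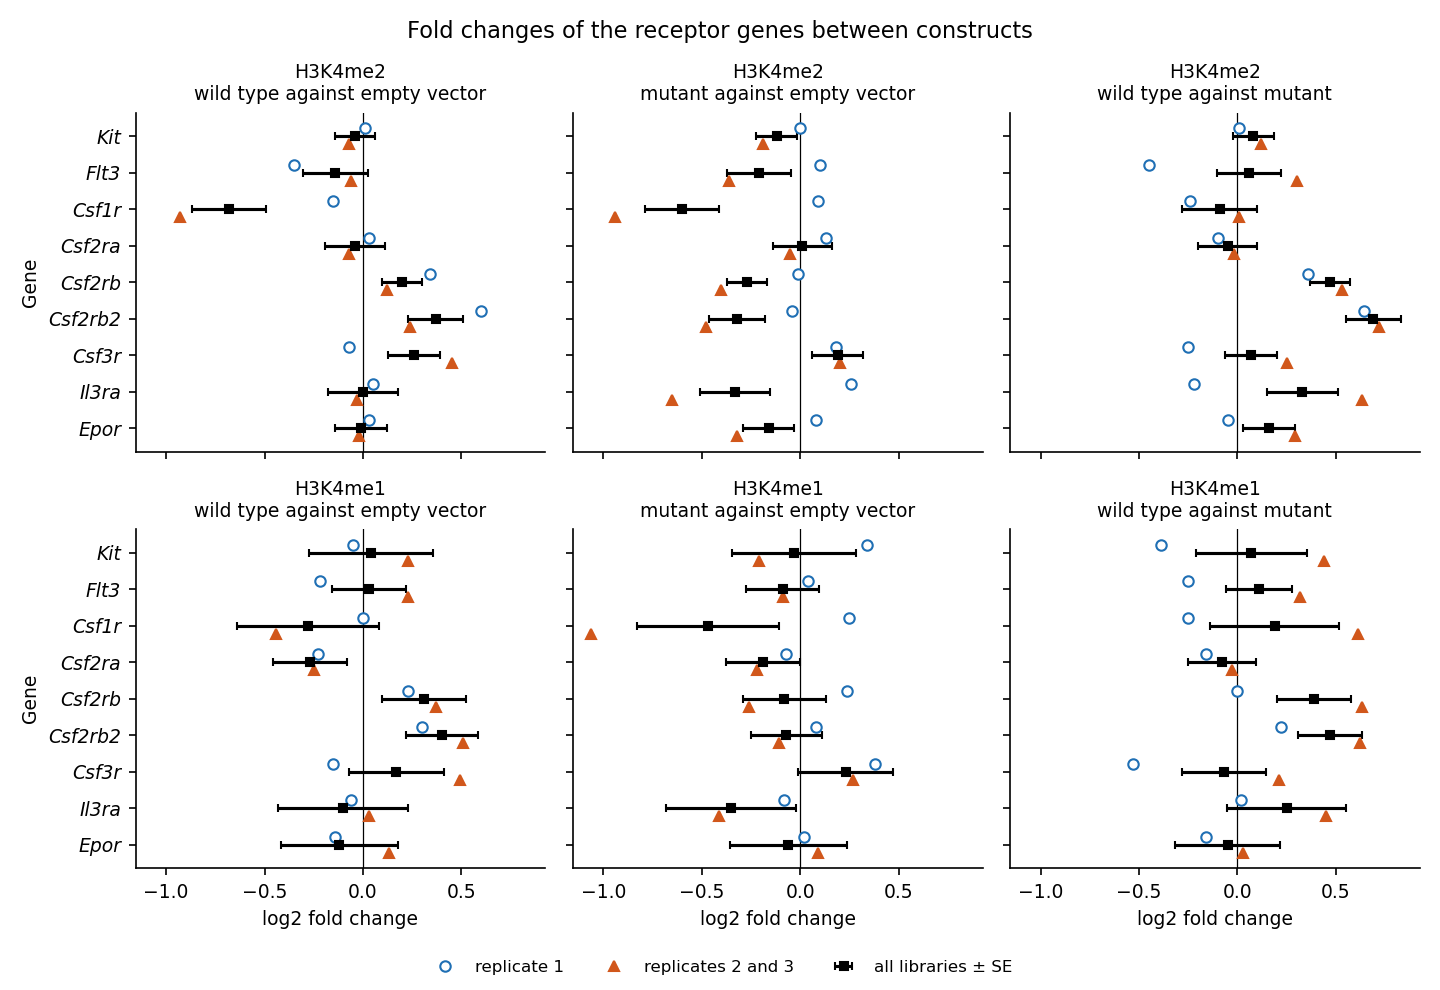
Log2 fold changes of the 9 receptor genes (x axes) in the 3 comparisons of constructs (columns) and 2 marks (rows). Squares with bars are all libraries ± SE, open circles replicate 1, and triangles replicates 2 and 3. Csf2rb2 lies right of 0 in wild type against mutant in both marks, and Csf1r against the empty vector has triangles at -0.93 and -0.94 and circles near 0 in H3K4me2.

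Counted over the receptors, the libraries of wild type and empty vector did not overlap for 2 of 9 in H3K4me2 (Csf1r and Csf2rb2, where 13.5% of all windows did not) and 3 of 9 in H3K4me1 (Csf2ra, Csf2rb and Csf2rb2, against 14.5%). For mutant against empty vector there were 3 in H3K4me2 (Kit, Csf2rb and Csf2rb2, against 7.54%) and 0 in H3K4me1 (against 9.11%). For wild type against mutant Csf2rb and Csf2rb2 did not overlap in either mark, against 10.1% of windows in H3K4me2 and 8.82% in H3K4me1. These calls were made on CPM by library totals, not on the TMM-scaled values behind the log2 fold changes. On the TMM scale, Csf2rb H3K4me1 in wild type against mutant was 0.00 in replicate 1. For mutant against empty vector in H3K4me2, replicate 1 gave 0.00 for Kit, -0.01 for Csf2rb and -0.04 for Csf2rb2. The median log2 fold change of the 9 receptors in H3K4me2 was -0.01 and -0.21 for wild type and mutant against the empty vector and 0.08 between the Snai1 constructs, where all windows had -0.01, 0.03 and -0.04. In H3K4me1 it was 0.03, -0.08 and 0.11, against -0.02, 0.00 and -0.01. The 3 comparisons share libraries and are not independent of each other.

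No gene of the ligand, related receptor, neighbouring kinase, signalling, negative regulator or target lists passed between constructs in either mark. In H3K4me2, wild type against mutant, the median log2 fold change was 0.12 for signalling genes, 0.13 for negative regulators, 0.17 for targets, 0.15 for related receptors and -0.29 for ligands, where all windows had -0.04 and moved by -0.09 more on library totals. These medians differed between the replicates. In the same order of lists they were -0.09, -0.07, -0.07, -0.03 and 0.18 in replicate 1 (all windows -0.03) and 0.24, 0.27, 0.33, 0.27 and -0.46 in replicates 2 and 3 (all windows -0.10). In the other 5 combinations of mark and comparison the medians of all 6 lists lay between -0.25 and 0.22. Stat5a, which transmits the signal of Epor and the beta chains, was at 0.33 (SE 0.114, adjusted p 0.503), 0.02 in replicate 1 and 0.51 in replicates 2 and 3. Socs1, an inhibitor of Jak kinases, was at 0.28 (SE 0.14, adjusted p 0.506), -0.03 and 0.47. Against the empty vector, wild-type cells gave 0.68 for Il1rl1 (SE 0.187, adjusted p 0.446), 0.11 in replicate 1 and 0.98 in replicates 2 and 3, and -1.38 for Il7r (SE 0.353, adjusted p 0.446), -0.24 and -1.78. Both windows were below IgG in CPM on library totals. Il1rl1 had 19.5 to 37.8 CPM of H3K4me2 and 64.8 and 68.8 CPM of IgG. Il7r had 2.4 to 11.6 CPM of H3K4me2 and 28.6 and 47.9 CPM of IgG.

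The windows most like each receptor were found by Pearson's r of H3K4me2 over the 9 libraries, among 11711 windows, which describes likeness only since the libraries share constructs and replicate numbers. For Csf2rb2 the closest was Csf2rb (r = 0.944), then Arid5b and Cdk18 (0.919 each), and Csf2rb was closest to Arid5b (0.97) and Chrne (0.969). Csf2rb lies 20079 bases from Csf2rb2, just outside the 20 kb left out around each gene. Since reads matching both genes may be shared, the likeness of these windows may not be independent. Csf1r was closest to Psap (0.985), then Map3k8 and Slco4a1 (0.969 each). Mapk1ip1l (0.956) and Clta (0.954) were among the windows closest to Kit. The closest were Mapk9 for Flt3 (0.959), Bcorl1 for Il3ra (0.999), Zfp512 for Csf2ra (0.985), Tmem131l for Csf3r (0.98) and Arl6ip4 for Epor (0.987).

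Snai1 peaks lay within 50 kb of 3 receptor genes in the wild-type list (Kit, Flt3 and Epor), of 6 in the mutant list (those and Csf1r, Csf2rb and Csf2rb2), and of 0 in the empty-vector list. The background was 25.4%, 56.4% and 1.78% of 25169 genes, so the share of receptors was near that of all genes in each list. Within 5 kb there were 2 in the wild-type list (Kit and Flt3, background 10.2%), 3 in the mutant list (Kit, Flt3 and Csf1r, 32.9%) and 0 in the empty-vector list (0.588%). The lists hold 2929 wild-type, 12037 mutant and 137 empty-vector peaks. Each construct has 1 list with no replicate, so the lists were not tested against each other, and fold enrichment and -log10 q are the authors' own values for each peak. Antibody signal and the amount of Snai1 protein were not compared here.

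Kit had a peak at its promoter in both Snai1 lists. The wild-type peak was at chr5:75574328-75574822 with a fold enrichment of 10.19, a -log10 q of 20.43 and a summit 392 bases before the Kit start site, and it ranked 445 of 2929. The mutant peak was at chr5:75574306-75575286 with a fold enrichment of 11.08, a -log10 q of 26.92 and a summit 275 bases before the start site, and it ranked 1140 of 12037. The wild-type peak covered the first 86 bases of the Kit promoter printed above and the mutant peak all 300 of them. Both summits lay upstream of the printed bases. Of the 7 receptors with a promoter entry, Kit alone had a peak over it, where wild-type peaks overlapped 1.75% of such promoters, mutant peaks 12.1% and empty-vector peaks 0.185%. The mutant list held 4 further peaks inside Kit, with summits 1034, 2338, 4019 and 48768 bases after the start site and fold enrichments of 4.37, 6.71, 4.77 and 4.23, and these overlapped no wild-type peak.

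Flt3 had the highest peaks of the receptor genes in the mutant list, and they lay toward the gene's far end. Flt3 runs from chr5:147330741-147400489 on the minus strand. The higher peak was at chr5:147340979-147341326 in the mutant list (fold enrichment 17.72, -log10 q 61.98, rank 277) and at chr5:147341036-147341309 in the wild-type list (fold enrichment 8.0, -log10 q 12.79, rank 864). The other was at chr5:147331452-147331864 in the mutant list (fold enrichment 14.87, -log10 q 43.04) and at chr5:147331602-147331809 in the wild-type list (fold enrichment 4.45, -log10 q 3.98, rank 2643). In the wild-type list the summits were 59317 and 68809 bases from the start site, so they fall outside the start-site window in which the marks were counted. Both sites were in both lists.

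**Figure D4:**
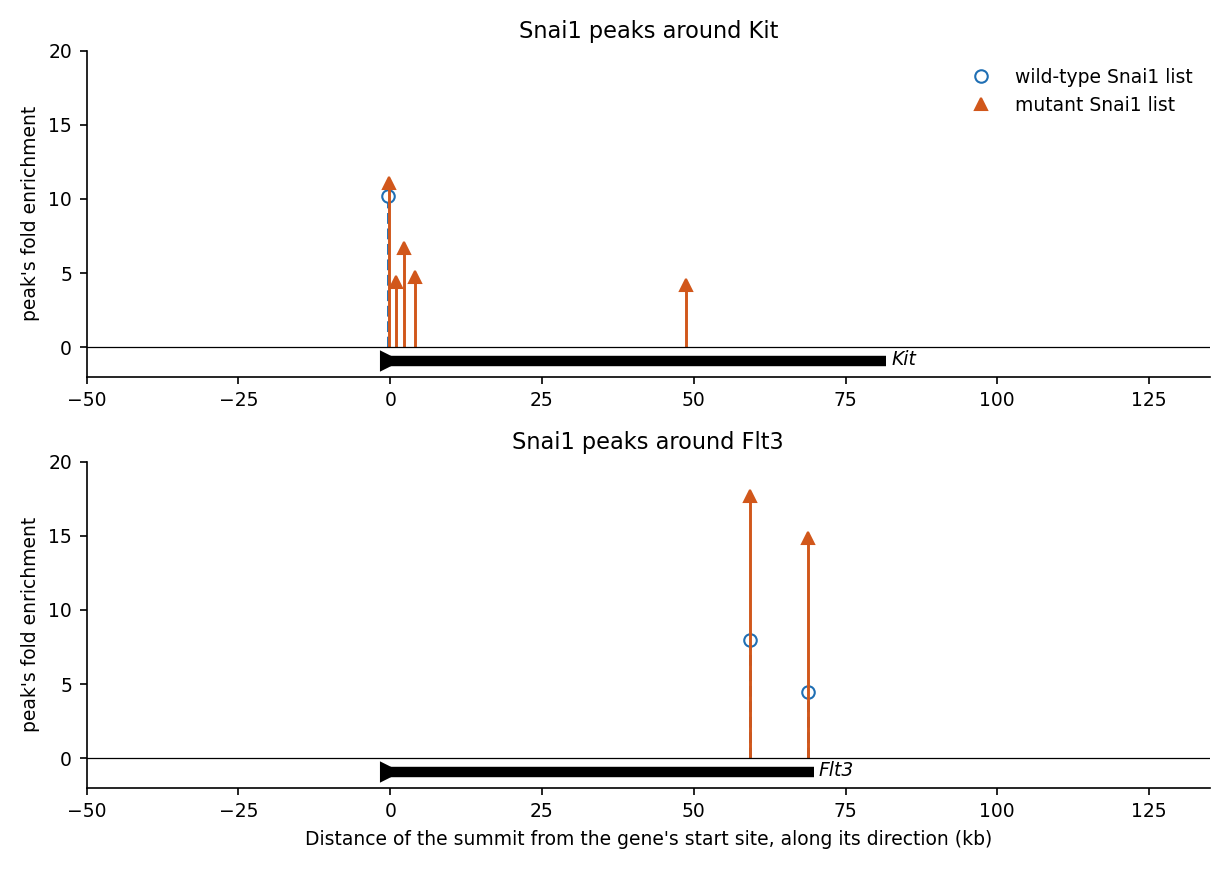
Fold enrichment of Snai1 peaks (y axes) by the distance of the summit from the start site in kb (x axes) around Kit and Flt3, with the gene body as a black bar. Open circles with dashed lines are wild-type peaks and triangles mutant peaks. At Kit the summits of the wild-type peak (10.19) and of the higher mutant peak (11.08) both lie just upstream of the start site. At Flt3 both sites lie inside the gene, far from its start.

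The remaining receptors had lower peaks or peaks nearer to other genes. Inside Csf1r the mutant list had chr18:61107938-61108184 (fold enrichment 6.42) and chr18:61108501-61108700 (fold enrichment 4.67), and another peak, chr18:61091208-61091462 (fold enrichment 6.22), lay 14243 bases from Csf1r and nearer to Pdgfrb. Csf2rb2 had mutant peaks at chr15:78267901-78268160 (fold enrichment 7.29), 14525 bases from the gene, and at chr15:78248561-78248850 (fold enrichment 5.71) inside Ncf4. Csf2rb had 1 mutant peak, chr15:78387814-78388016 (fold enrichment 4.27), inside Tex33. Epor had a peak inside Ccdc151 in both lists, at chr9:22002660-22003050 in the wild-type list (fold enrichment 4.77) and chr9:22002716-22002942 in the mutant list (fold enrichment 4.34), and mutant peaks inside Rab3d (5.83) and at Tmem205 and Ccdc159 (6.0). Csf2ra, Csf3r and Il3ra had no peak within 50 kb in any list. Whether an intragenic peak lies in an exon or an intron was not analysed here.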

How the data were processed

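ChIP-seq of H3K4me2, H3K4me1 and IgG was taken as read counts, which the authors deposited as 1 table of raw counts per start-site window, made with Subread and featureCounts per the submitters' processing notes. Snai1 peak lists give the fold enrichment and the -log10 q that the authors deposited, with MACS2 as the caller and GRCm38 (mm10) as the build per the same notes. Versions, the peak control and the treatment of reads matching several places are not given in the sources used here. The count table holds no window coordinates.

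Of 27095 rows, 93.0% matched a RefSeq symbol by gene ID. Rows with no read (20) and rows equal to an earlier row (31) were left out. For each mark 1 edgeR model (4.0.16, in R 4.3.3) held the 3 constructs, with filterByExpr, TMM factors, the two-sided quasi-likelihood test and Benjamini-Hochberg adjustment across all windows at 0.05. Marks were tested against IgG in wild-type cells on column totals. Calls of non-overlap use CPM on column totals. All 9 receptors passed the filter on low counts in every comparison. DESeq2 1.42.0, other scalings, no filter, the replicate block, leaving out libraries and other peak distances were alternatives. The script was tested on simulated counts. Precision is set by the counts and the number of libraries.

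The constructs share replicate numbers in the labels. Deviations from the group means of same-numbered libraries correlated at 0.209 to 0.612 in every pair with the empty vector. Between wild type and mutant they correlated at 0.007 to 0.285, which overlaps that range. These correlations do not settle which libraries the numbers pair, and the replicate block was run as an alternative in all comparisons. The main tests held no term for the replicate number, so their p-values leave any such pairing out.

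The receptors, gene lists and tests were chosen with earlier results of these data known. All receptors are named. In each list, up to 4 genes per direction that passed qualified for naming, or up to 2 with the smallest p where none passed. For each receptor up to 3 windows with the highest r were kept, from windows with a mean H3K4me2 of at least 10 CPM and more than 20 kb away. One of the windows so kept for Kit is not reported here.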

Additional observations from a re-analysis of the deposited data

How the results depend on the processing

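No receptor gene passed between constructs in the main tests, and 8 of the alternative values for single receptors passed, those of Csf1r, Csf2rb, Csf2rb2, Il3ra and Epor given with their values in the report. The cause was not tested. The number of windows called over all genes depended on the fit. With replicates 2 and 3 summed and a term for replicate 1 it was 89, 19 and 117 in H3K4me2 (wild type and mutant against the empty vector, then wild type against mutant) and 22, 1 and 19 in H3K4me1. DESeq2 gave 88, 8 and 74 in H3K4me2, and 1 and 30 for wild type against empty vector and against mutant in H3K4me1. With only the libraries of both constructs compared, H3K4me2 gave 0 for wild type against empty vector and 2 for wild type against mutant. Leaving out each library in turn gave 0 to 719, 0 to 620 and 0 to 4289 windows in H3K4me2, and 0 to 2 for wild type against empty vector and 0 to 211 for wild type against mutant in H3K4me1, and the highest counts came without replicate 1 of a construct, when the other constructs keep it. Without empty-vector replicate 1 in H3K4me1 the summed sample stands alone and is assumed to vary like the other groups.

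With the replicate number as a block, wild type against empty vector had 5 windows in H3K4me2 and 2 in H3K4me1. Wild type against mutant had 12 and 2 with the replicate block. In that comparison the smallest adjusted p of a receptor in the quasi-likelihood test with the block was 0.0674 in H3K4me2 and 0.152 in H3K4me1. The block changed no call of a receptor, also over IgG.

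Against IgG, scaling reversed the H3K4me2 sign of Csf1r (0.18 with TMM, 1.02 with DESeq2 size factors) and of Csf2ra (0.78 with DESeq2 size factors), since these scalings move all windows up. Counting peaks within 100 kb gave 5 receptors in the wild-type list (36.3% of all genes), 9 in the mutant list (66.5%) and 1, Csf1r, in the empty-vector list (2.75%), and within 5 kb the mutant list gave 3. Within a construct and mark, the spread between replicate 1 and the other replicates was 9.49 to 17.7 times the counting variance. Replicate 1 was also the deepest library of each construct and mark, and the cause of the spread was not tested.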

Other observations

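Snai1 peaks also lay near genes that act downstream of the receptors. Within 5 kb, the wild-type list held a peak for 10 of 25 signalling genes and the mutant list for 18 of 25, where 10.2% and 32.9% of all genes had one, and the empty-vector list for 0. Both Stat5 genes were among them, with a strongest wild-type fold enrichment of 9.04 for Stat5a and 7.25 for Stat5b, and 9.57 and 12.25 in the mutant list. For Stat5b the strongest peaks were at different sites, chr11:100852977-100853610 in the wild-type and chr11:100814394-100814772 in the mutant list. The Stat5a peak is also the strongest one of Stat3 in both lists, so it counts for 2 of these genes. Of 14 negative regulators, 4 had a wild-type peak and 9 a mutant peak. Cblb, a ubiquitin ligase, had a wild-type fold enrichment of 12.93 and a mutant one of 8.78, and Socs3, an inhibitor of cytokine receptors, 6.35 and 7.87. Of 12 target genes, 3 had a wild-type peak and 9 a mutant peak, and Spry2, an inhibitor of receptor tyrosine kinase signalling, had 13.75 and 11.96. Flt3l, the ligand of Flt3, had a peak within 5 kb in all 3 lists, but not at the same site. Its only wild-type peak was at chr7:45137104-45137313 (fold enrichment 4.94). The strongest peaks of the mutant list, chr7:45128782-45129307 (9.03), and of the empty-vector list, chr7:45128845-45129184 (10.07), overlapped each other and not the wild-type peak. These genes were named after their values were seen, and the lists have no replicate.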
